A study of Mus musculus with 20 samples.

Results

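The mitochondrial ribosomal protein genes are described here in the left ventricle of mice fed 1 of 4 statins or plain chow. They were taken as all genes whose annotated symbol begins with Mrpl or Mrps followed by a number, each represented by its brightest probe set over the arrays. This gave 76 genes of 18193 with a probe set that carries 1 symbol. Mrpl30 and Mrpl53 are represented only by probe sets shared with another gene and were left out. All 76 passed the filter on low signal. For the subunits, 49 genes were counted to the large subunit, among them Mrps30 and Mrps18a despite their names, and 27 to the small subunit. The other genes, Mrps36 among them, were placed by symbol alone.

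Male C57BL/6J mice, in every group, arrived at 6 weeks of age, were kept for 2 weeks and were then studied for 4 weeks. The 5 groups of 4 mice were given pitavastatin calcium at 4.5 mg/kg/day, pravastatin sodium at 21.0 mg/kg/day, rosuvastatin calcium at 10.9 mg/kg/day, atorvastatin calcium hydrate at 11.4 mg/kg/day, or chow without a statin (control). The statins were powdered tablets mixed into the food, so doses rest on estimated food intake and differ between the drugs. RNA of 1 left ventricle was amplified and hybridised to 1 Affymetrix mouse array, which reports a signal for each probe set.

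Mitochondria carry their own ribosome, which translates the few messages encoded by mitochondrial DNA, all of them for subunits of the respiratory chain and ATP synthase. Its ribosomal RNAs are mitochondrial, while all of its proteins are encoded in the nucleus, made in the cytosol and imported. The heart depends on oxidative phosphorylation, and in humans mutations in several of these genes, such as MRPL3 and MRPL44, cause cardiomyopathy. Statins inhibit HMG-CoA reductase, the enzyme that commits carbon to the mevalonate pathway.

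Nuclear genes for mitochondrial proteins often have promoters with sites for NRF1, for ETS factors such as GABP, or for YY1. RefSeq promoters (GRCm38.p6) were at hand for 67 of the 76 genes, 73 promoters in all, each spanning 250 bases before the start and 50 after it. Searched on both strands, the NRF1 motif (GCGC, any base, then TGCGC) was present in 12 of these promoters, or 16.4%, against 4.6% of 32851 promoters of all genes. The ETS motif CCGGAAG was present in 25, or 34.2%, against 8.86% of all promoters. The YY1 motif AAGATGGCG was present in 8, or 11.0%, against 1.4% of all promoters. At least 1 of the 3 stood in 53.4% of the promoters of these genes and in 13.6% of all promoters. The ETS motif ends and the YY1 motif begins in AAG, so one stretch can hold both. A match describes these windows and was not tested for binding. The 250 bases upstream are shown for 5 members that recur in the results below, with the motif in capitals: NRF1 in Mrpl12 and, on the opposite strand, in Mrpl57, ETS in Mrpl3 and Mrpl58, and YY1 on the opposite strand in Mrps11.
Mrpl12 (chr11:120484387-120484636, + strand): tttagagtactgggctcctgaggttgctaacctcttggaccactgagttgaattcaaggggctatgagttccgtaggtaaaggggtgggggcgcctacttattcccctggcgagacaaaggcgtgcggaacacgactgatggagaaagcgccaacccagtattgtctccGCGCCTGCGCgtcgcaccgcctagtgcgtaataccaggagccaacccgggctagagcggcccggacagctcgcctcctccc
Mrpl57 (chr14:57825989-57826238, + strand): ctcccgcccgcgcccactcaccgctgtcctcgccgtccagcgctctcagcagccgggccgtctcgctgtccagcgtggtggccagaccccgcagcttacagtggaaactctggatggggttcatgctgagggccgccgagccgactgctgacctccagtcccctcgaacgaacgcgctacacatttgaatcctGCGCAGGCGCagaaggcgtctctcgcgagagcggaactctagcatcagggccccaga
Mrpl3 (chr9:105053018-105053267, + strand): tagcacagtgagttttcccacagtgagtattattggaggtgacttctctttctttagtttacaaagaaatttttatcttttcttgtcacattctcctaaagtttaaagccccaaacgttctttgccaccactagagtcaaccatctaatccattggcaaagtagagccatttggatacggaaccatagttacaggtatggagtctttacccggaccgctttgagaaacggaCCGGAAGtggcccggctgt
Mrpl58 (chr11:115403502-115403751, + strand): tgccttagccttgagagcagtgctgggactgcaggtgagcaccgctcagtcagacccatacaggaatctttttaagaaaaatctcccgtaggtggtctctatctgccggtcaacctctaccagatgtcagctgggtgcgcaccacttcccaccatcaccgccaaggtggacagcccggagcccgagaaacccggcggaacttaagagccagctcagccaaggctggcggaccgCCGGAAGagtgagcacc
Mrps11 (chr7:78782881-78783130, + strand): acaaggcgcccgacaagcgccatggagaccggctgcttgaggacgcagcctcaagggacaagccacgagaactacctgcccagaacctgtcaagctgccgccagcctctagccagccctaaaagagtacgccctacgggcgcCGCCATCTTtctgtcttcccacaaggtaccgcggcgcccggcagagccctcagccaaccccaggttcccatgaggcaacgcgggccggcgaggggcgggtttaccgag

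Signals are given as log2(signal + 16). On this scale the median probe set signal of an array before the logarithm was between 41.7 and 144, lowest in rosuvastatin mouse 3 and highest in atorvastatin mouse 2, although all arrays had been scaled to the same trimmed mean. In log2 this median was 6.09 ± 0.48 in rosuvastatin and 6.56 ± 0.26 in control (SD, n = 4 each), a difference of -0.47 that did not pass the test (two-sided exact permutation p = 0.171, and larger p for the other statins). The 18S control probe set was higher in pravastatin by 0.58 and in rosuvastatin by 0.55 than in control, with groups that did not overlap (exact permutation p = 0.0286, the smallest that 4 against 4 mice allow, and 0.229 after adjustment over 16 tests). The log2 ratio of 3' to 5' signal of the actin controls was lowest in atorvastatin mouse 2 (1.84) and highest in atorvastatin mouse 4 (2.86). For the Gapdh controls it was lowest in rosuvastatin mouse 3 (0.60) and highest in rosuvastatin mouse 2 (0.90). Neither ratio passed the test in any statin against control (exact permutation p between 0.486 and 0.943). All 12 cardiomyocyte markers passed the filter and none of the 6 adipocyte markers did. The counts and medians over the genes below are followed by those of the fit that adds as covariate the log2 median of each array's signals.

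Across the arrays the genes moved together. Over the 2850 pairs of members the median Pearson correlation across the 20 arrays was 0.59, and 89.7% of pairs were above 0, while over pairs of all 11229 tested genes the median was 0.006. These correlations are descriptions, and all pairs share the same arrays and their depth of signal. Of the 76 members, 72 correlated above 0 with the mean of the others and 66 above 0.5. Mrpl44, an RNase III-like protein of the large subunit, stood apart with a correlation of -0.67, followed by Mrps23 at -0.22, Mrpl13 at -0.15 and Mrps5 at -0.05. Only the brightest probe set of each gene entered these correlations. Principal component analysis placed 65.6% of the members' variance on its leading axis, against 56.6% for all tested probe sets.

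**Figure D1:**
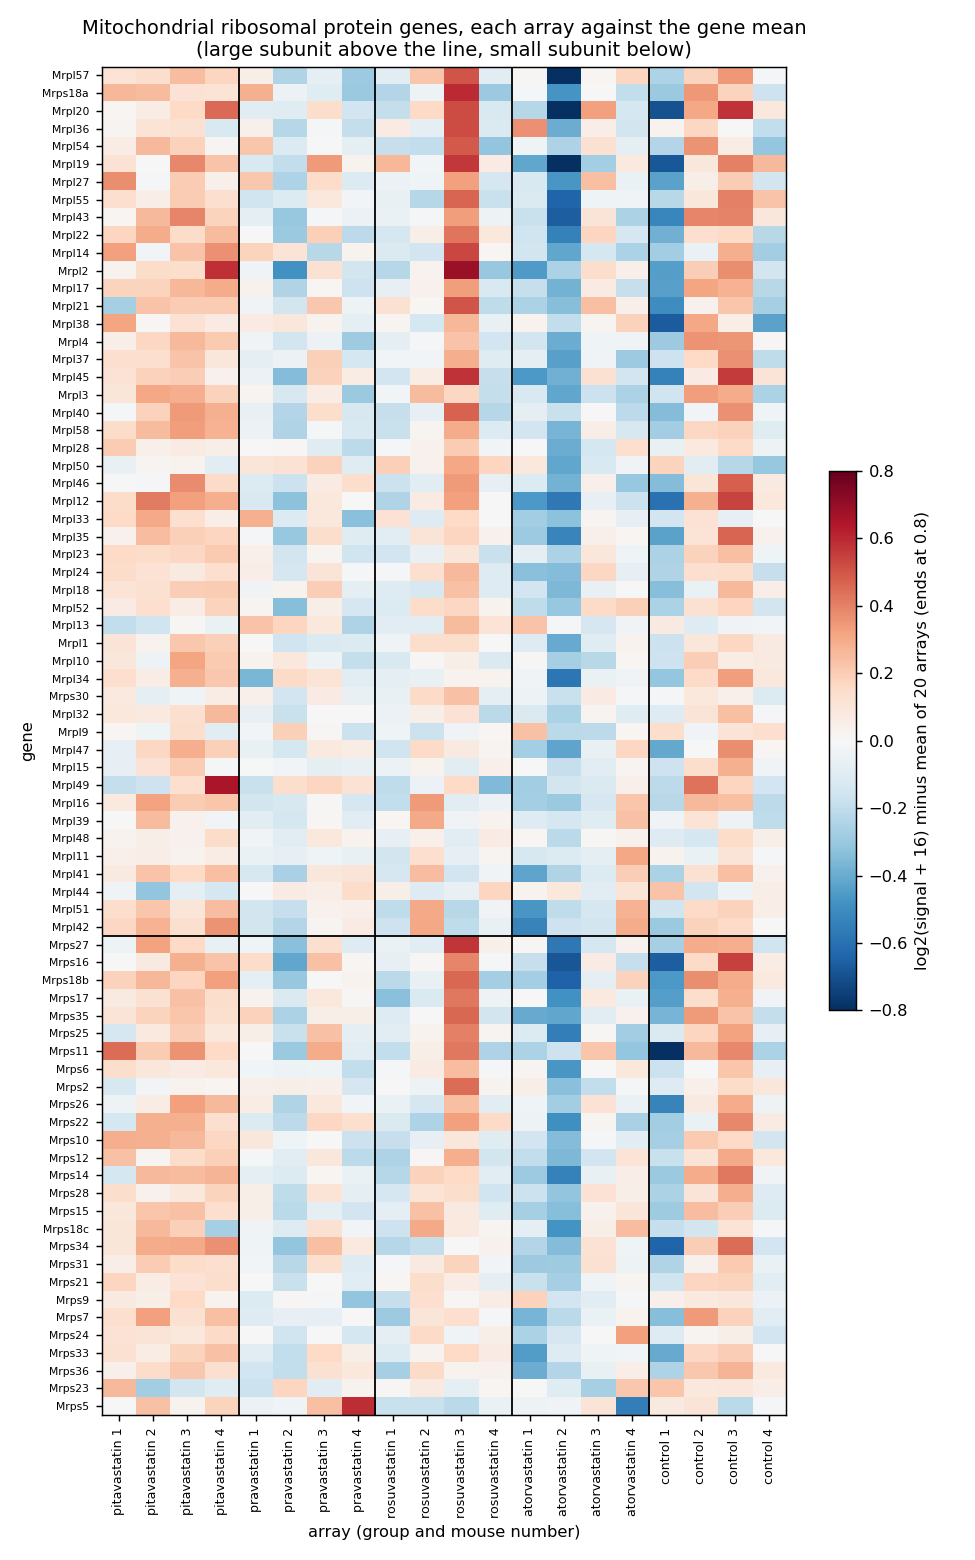
Each row is 1 of the 76 genes and each column 1 of the 20 arrays, with colour giving log2(signal + 16) minus the gene's mean over the arrays. Some columns are nearly uniform from top to bottom: atorvastatin mouse 2 and control mouse 1 are low in most rows, with 1 and 9 genes above their own mean, and pitavastatin mouse 3 and control mouse 3 are high, with 73 and 70. Others are mixed, such as pravastatin mouse 1 with 31 and atorvastatin mouse 4 with 36.

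The shared movement followed single mice more than groups. The mean over the 76 genes was 11.48, 11.53, 11.58 and 11.56 in the pitavastatin mice, 11.39, 11.27, 11.47 and 11.33 in pravastatin, 11.30, 11.43, 11.63 and 11.34 in rosuvastatin, 11.25, 11.04, 11.39 and 11.39 in atorvastatin, and 11.14, 11.54, 11.63 and 11.35 in control. The control mice spanned nearly the whole range, since control mouse 3 was the highest of the 20 and control mouse 1 the second lowest after atorvastatin mouse 2. By group this was 11.54 ± 0.04 in pitavastatin, 11.37 ± 0.09 in pravastatin, 11.43 ± 0.14 in rosuvastatin, 11.27 ± 0.17 in atorvastatin and 11.42 ± 0.22 in control (SD, n = 4 each). The pitavastatin mice lay close together and high, and every statin group overlapped the control mice. In each of the 5 groups mouse 3 had the highest mean and mouse 1 or 2 the lowest. In atorvastatin mouse 3 was at 11.393 and mouse 4 at 11.390. This order by mouse number was not tested.

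The number of genes above their own mean over the 20 arrays also differed widely between the mice of a group. It was 61, 65, 73 and 66 of 76 in pitavastatin, 31, 14, 56 and 23 in pravastatin, 11, 45, 62 and 27 in rosuvastatin, 16, 1, 34 and 36 in atorvastatin, and 9, 64, 70 and 28 in control. The subunits went together: in atorvastatin mouse 2, 1 of 49 large subunit genes and 0 of 27 small subunit genes were above their mean, and in control mouse 3 these were 44 and 26.

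**Figure D2:**
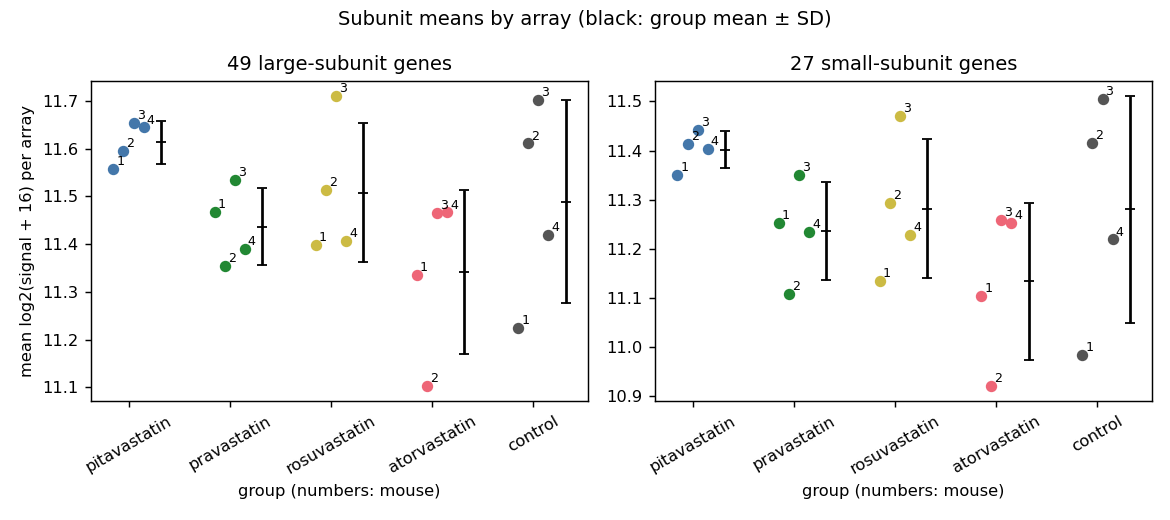
The mean log2(signal + 16) of the large subunit genes and of the small subunit genes is plotted for each mouse by group, with the group mean ± SD (n = 4) in black. Pitavastatin mice are tightly grouped, at 11.56 to 11.65 for the large subunit, while control mice run from 11.22 to 11.70.

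None of the 76 genes was called in any statin against control, in the mean of the 4 statins against control or in the F test over the 5 groups (limma, Benjamini-Hochberg adjusted p of 0.05). Over all 22518 tested probe sets, 0% were called in each statin against control and in the mean of the 4 statins, and 0.00444% in the F test. With the covariate there were still no calls among the genes, while 0.0266% of probe sets were called in pravastatin against control and 0.0222% in the F test. At an unadjusted p under 0.05, the F test without the covariate held 5 of the 76 genes (6.58%), near the 6.24% of all probe sets. With the covariate it held 24 (31.6%), against 11.8% of all probe sets, and genes that move together are not independent.

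In pitavastatin the fold changes leaned upward without a call. The log2 fold change against control was positive for 70 of 76 genes, with a median of 0.12, against 49% of all probe sets with a median of -0.003. At an unadjusted p under 0.05 there were 2 genes higher and 0 lower, against 1.93% of all probe sets in either direction. Adding the covariate left 67 positive with a median of 0.11, against 51.4% of all probe sets, and 6 genes, all higher, then had an unadjusted p under 0.05, against 3.46% of all probe sets. The lean depended on control mouse 1: without it, 50 genes were positive and the median was 0.04, and without control mouse 3 the median was 0.20. The 6 genes below 0 were Mrps23 at -0.18, Mrpl44 at -0.16, Mrpl13, Mrpl9, Mrps2 and Mrps25. Their other probe sets were mostly not below 0: 0.04 and 0.03 for Mrps23, 0.21 and -0.15 for Mrpl13, and -0.02 and 0.48 for Mrpl9. For Mrps2 the other was at 0.04, for Mrps25 they were at 0.0006 and 0.09, and Mrpl44 is given below.

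Atorvastatin leaned the other way, also without a call. Here 7 of 76 genes were positive with a median of -0.14, against 43.9% of all probe sets with a median of -0.03. At an unadjusted p under 0.05, 4 genes were lower (Mrps25, Mrpl3, Mrpl12 and Mrpl55) and 0 higher, against 4.57% of all probe sets in either direction. With the covariate, 6 were positive with a median of -0.16, against 46.3% of all probe sets, and 20 genes, all lower, had an unadjusted p under 0.05, against 9.69% of all probe sets, the smallest adjusted p being 0.306. Without atorvastatin mouse 2 the median was -0.08 with 19 genes positive, and without control mouse 1 it was -0.23.

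Pravastatin and rosuvastatin lay nearer to control. In pravastatin 20 of 76 genes were positive with a median of -0.07, against 45% of all probe sets with a median of -0.02, and 0 genes had an unadjusted p under 0.05, against 3.93% of all probe sets. In rosuvastatin 40 were positive with a median of 0.01, against 45.9% with a median of -0.02, and 1 gene had an unadjusted p under 0.05, against 11% of all probe sets. The covariate changed rosuvastatin most: 10 genes were then positive with a median of -0.11, against 45.9% of all probe sets, while pravastatin had 14 with a median of -0.09, against 47%. At an unadjusted p under 0.05 the covariate gave 5 genes in rosuvastatin, against 6.86% of all probe sets, and 2 in pravastatin, against 7.63%, all of them lower. Mrpl50, the 1 gene of rosuvastatin without the covariate, was higher and not among the 5. Leaving out control mouse 1 gave medians of -0.15 in pravastatin and -0.09 in rosuvastatin, and leaving out rosuvastatin mouse 3 gave -0.05 in rosuvastatin. For the mean of the 4 statins, 31 genes were positive with a median of -0.02, against 44.8% of all probe sets, and with the covariate 17, against 46.5%. At an unadjusted p under 0.05 there were 0 genes, against 3.05% of all probe sets, and with the covariate 2, against 5.56%. These comparisons share the 4 control mice, so a low or high control mouse moves all of them at once.

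**Figure D3:**
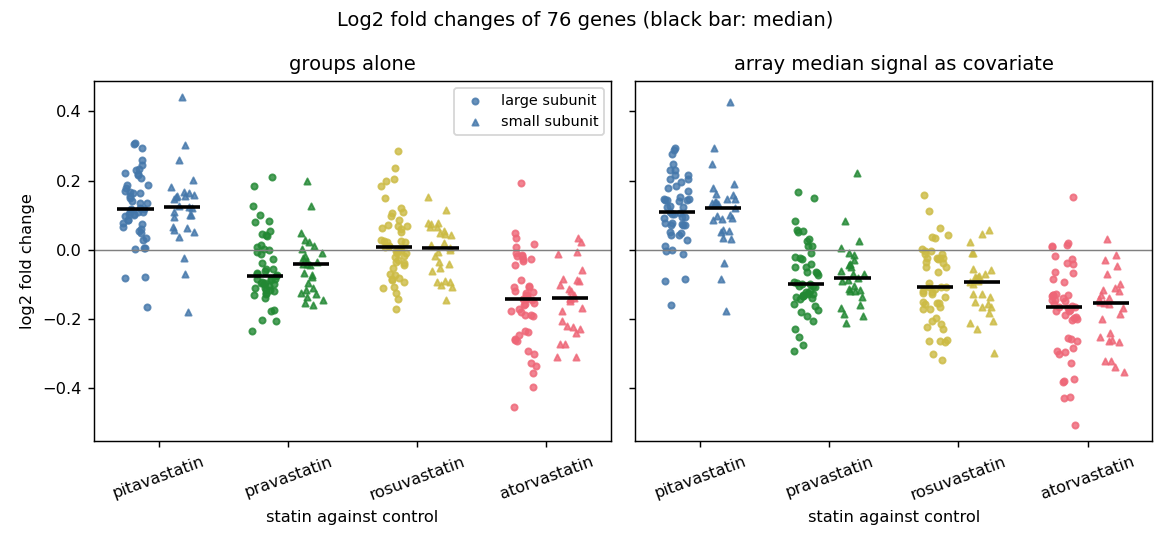
Log2 fold changes of the 76 genes against control are plotted for each statin, large and small subunit apart, without and with the array median signal as covariate; black bars are medians. Pitavastatin points lie mostly above 0 (70 of 76) and atorvastatin points mostly below (7 of 76 above 0) without the covariate; no point was called.

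The large and small subunits had like medians. In pitavastatin the median log2 fold change was 0.12 for both, with 46 of 49 and 24 of 27 genes positive. In pravastatin it was -0.07 and -0.04, in rosuvastatin 0.01 for both, and in atorvastatin -0.14 for both. The difference between the subunits was not tested.

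The smallest p of the F test among the genes was that of Mrps10, a protein of the small subunit head. Its log2 signal was 10.62, 10.61, 10.58 and 10.49 in pitavastatin, 10.42, 10.29, 10.33 and 10.16 in pravastatin, 10.14, 10.26, 10.41 and 10.23 in rosuvastatin, 10.17, 9.98, 10.32 and 10.23 in atorvastatin, and 10.06, 10.54, 10.48 and 10.18 in control. The pitavastatin mice were above every mouse of the other statins but overlapped control mouse 2. The F statistic was 4.18 with an adjusted p of 0.616, and 0.165 with the covariate. Pitavastatin against control was 0.26 (SE 0.10, 95% interval 0.04 to 0.48, adjusted p = 1.00 in limma).

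Mrpl58, a peptidyl-tRNA hydrolase that frees stalled mitochondrial ribosomes, had a like order. Its log2 signal was 11.35, 11.46, 11.54 and 11.49 in pitavastatin, 11.16, 10.96, 11.19 and 11.09 in pravastatin, 11.03, 11.23, 11.50 and 11.09 in rosuvastatin, 11.05, 10.83, 11.26 and 11.08 in atorvastatin, and 10.93, 11.37, 11.39 and 11.11 in control. Rosuvastatin mouse 3 and control mice 2 and 3 lay among the pitavastatin mice. The F statistic was 3.68 with an adjusted p of 0.699, and pitavastatin against control was 0.26 (SE 0.12).

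Mrpl3, a large subunit protein of the peptidyl transferase region, was lowest in atorvastatin. Its log2 signal was 12.13, 12.34, 12.32 and 12.21 in pitavastatin, 12.05, 11.90, 12.09 and 11.73 in pravastatin, 12.00, 12.28, 12.19 and 11.83 in rosuvastatin, 11.91, 11.61, 11.86 and 11.77 in atorvastatin, and 11.87, 12.36, 12.33 and 11.78 in control. Control mice 1 and 4 lay within the atorvastatin mice. The F statistic was 3.55 with an adjusted p of 0.725, and atorvastatin against control was -0.29 (SE 0.13, interval -0.56 to -0.02, adjusted p = 0.964 in limma).

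Mrpl12, a protein of the stalk that recruits translation factors, is also reported to bind mitochondrial RNA polymerase. Its log2 signal was 12.65, 12.92, 12.83 and 12.79 in pitavastatin, 12.38, 12.17, 12.59 and 12.50 in pravastatin, 12.26, 12.57, 12.83 and 12.50 in rosuvastatin, 12.04, 11.93, 12.44 and 12.33 in atorvastatin, and 11.91, 12.79, 13.04 and 12.59 in control. Control mouse 1 had the lowest value of all 20 and control mouse 3 the highest. Atorvastatin against control was -0.40 (SE 0.18, interval -0.78 to -0.02) and pitavastatin against control 0.22 (SE 0.18), and the F statistic was 3.10 with an adjusted p of 0.775. The fourth gene by the F test, before Mrpl12, was Mrpl1, of the stalk through which spent tRNA leaves in bacteria, with a statistic of 3.22 and an adjusted p of 0.756.

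The largest fold change in pitavastatin was that of Mrps11, a small subunit protein, at 0.44 (SE 0.23). Its log2 signal was 9.57, 9.33, 9.48 and 9.29 in pitavastatin and 8.14, 9.39, 9.51 and 8.87 in control. Control mouse 1 stood far below the others, and control mice 2 and 3 lay within the pitavastatin mice. The fold change was 0.16 without control mouse 1 and 0.62 without control mouse 3. Mrpl38, a protein of the central protuberance, was among the 4 highest in every statin, at 0.31 with pitavastatin, 0.21 with both pravastatin and rosuvastatin, and 0.19 with atorvastatin (SE 0.16 each). Its log2 signal lay between 9.22 and 9.52 in pitavastatin, 9.14 and 9.30 in pravastatin, 9.07 and 9.47 in rosuvastatin and 9.01 and 9.39 in atorvastatin, and was 8.54, 9.52, 9.26 and 8.78 in control. Control mice 1 and 4 lay below every statin mouse, and the other control mice lay among them. Mrps34, which causes Leigh syndrome in humans when mutated, and Mrpl14 followed in pitavastatin at 0.30 each; without control mouse 1 Mrps34 was at 0.10, and without control mouse 3 at 0.46. Leaving out control mouse 1 lowered the Mrpl38 fold change to 0.03 with atorvastatin, 0.04 with rosuvastatin, 0.05 with pravastatin and 0.15 with pitavastatin. Leaving out control mouse 2 raised it to 0.36, 0.37, 0.38 and 0.47 in that order, so its high place in every statin leaned on shared control mice.

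Other fold changes at the ends of the range differed by statin. In pravastatin the highest after Mrpl38 were Mrps5 at 0.20, Mrpl50 at 0.18 and Mrpl21 at 0.13, and the lowest were Mrpl4, a protein of the tunnel wall, at -0.23, Mrpl57 at -0.21, Mrpl43 at -0.20 and Mrpl55 at -0.18. The other probe sets of Mrps5 were at -0.26 and -0.07 in pravastatin, and that of Mrpl50 at 0.006. In rosuvastatin Mrpl50 was at 0.29 (SE 0.11, unadjusted p = 0.0169, adjusted p = 0.452 in limma), Mrpl21 at 0.24 and Mrpl19 at 0.20, and the lowest were Mrpl49 at -0.17, Mrps5 at -0.15, Mrpl9 at -0.14 and Mrpl55 at -0.13. The other probe set of Mrpl50 was at 0.04 in rosuvastatin, and those of Mrps5 at 0.06 and -0.37. In atorvastatin Mrpl19 was at -0.45, Mrpl20 at -0.36 and Mrpl43 at -0.34, while Mrpl21 was at 0.05, Mrpl13 at 0.03 and Mrps24 at 0.03. The other probe sets of Mrpl13 were at -0.19 and -0.33 in atorvastatin. Mrps24, at the entry of the messenger path, had a fold change of 0.16 (SE 0.10) in pitavastatin. Its pitavastatin mice (13.10 to 13.17) all lay above the control mice (12.86 to 13.06). It was the single such gene of 76 (1.32%), near the 0.924% of all probe sets. The other probe set of Mrps24 was at 0.02 in pitavastatin and -0.17 in atorvastatin. Single mice weighed on these values: of the 32 fold changes against control at the ends of the range, 28 moved by over 1.5 times or changed sign when 1 mouse was left out. In atorvastatin Mrpl19 ran between -0.69 and -0.22 and Mrpl20 between -0.61 and -0.08, without control mouse 1 and without atorvastatin mouse 2 in both. Mrpl21 ran between -0.08 and 0.16, Mrpl13 between -0.04 and 0.08 and Mrps24 between -0.08 and 0.11 in atorvastatin, and Mrpl19 between -0.04 and 0.33 in rosuvastatin, so that these 4 changed sign.

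**Figure D4:**
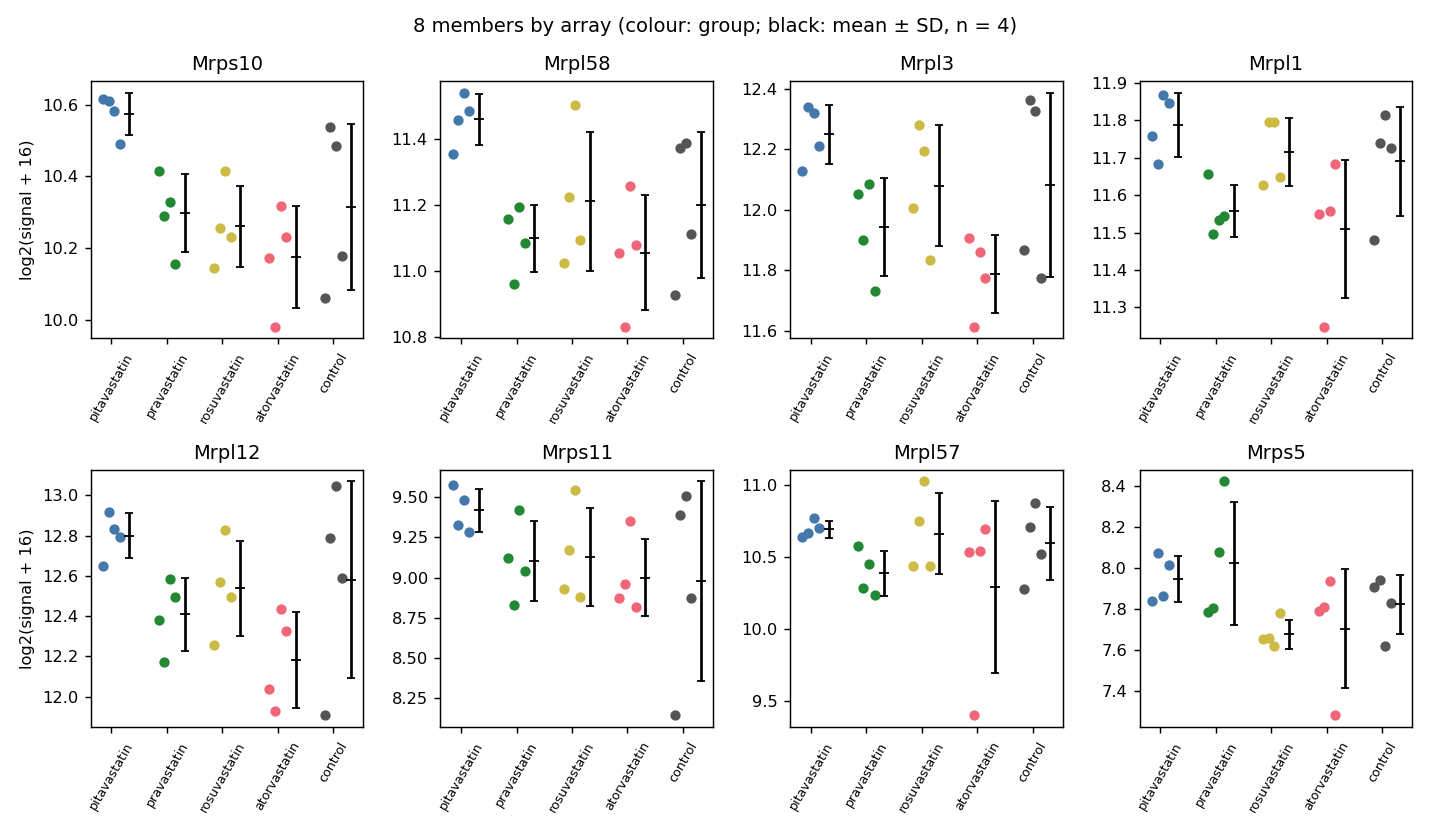
Log2(signal + 16) of 8 members is plotted for every mouse by group, with the group mean ± SD (n = 4) in black. Pitavastatin mice of Mrps10 lie between 10.49 and 10.62, and control mice between 10.06 and 10.54; in Mrps11 and Mrpl12 control mouse 1 is the lowest point.

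By role, the stalk proteins Mrpl10, Mrpl11 and Mrpl12 had fold changes of 0.10, 0.03 and 0.22 in pitavastatin and -0.16, -0.02 and -0.40 in atorvastatin. Of 9 proteins around the exit of the peptide tunnel, 8 were positive in pitavastatin (median 0.13) and 2 in atorvastatin (median -0.10), and Mrpl45, which ties the ribosome to the inner membrane, was at -0.26 in atorvastatin. The 6 proteins of the central protuberance, where the mammalian ribosome carries a tRNA in place of a ribosomal RNA, were all positive in pitavastatin (median 0.19), and 1 was positive in atorvastatin (median -0.07). In the small subunit, Mrps5, Mrps12 of the decoding centre and Mrps24 were at 0.12, 0.07 and 0.16 in pitavastatin and -0.12, -0.23 and 0.03 in atorvastatin. The head proteins Mrps7, Mrps9, Mrps10 and Mrps14 were at 0.18, 0.04, 0.26 and 0.06 in pitavastatin and -0.18, -0.06, -0.14 and -0.31 in atorvastatin. Of 12 genes with disease mutations in humans, 8 were positive in pitavastatin (median 0.11) and 1 in atorvastatin (median -0.20). None of these genes was called.

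For 31 of the 76 genes more than 1 probe set was tested, and the probe sets did not always point the same way. All probe sets of a gene had the same sign for 17 of the 31 genes with pitavastatin against control, for 14 with pravastatin, for 17 with rosuvastatin and for 19 with atorvastatin. The 55 other probe sets had medians of 0.07, -0.06, -0.01 and -0.12 in these comparisons. For Mrpl44 the brightest probe set was at -0.16 in pitavastatin and the others at -0.0001, 0.08 and 0.18, and for Mrpl3 the 4 probe sets ran between -0.05 and 0.17.

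Calls among these genes came from a slope within groups. Fitted beside the group means, the slope on the log2 median signal of the array was called negative for 31 of 76 genes and positive for 0, against 15.5% of all probe sets negative and 24% positive. The median slope was -0.26 and 8 genes were above 0, against a median of -0.02 and 47.7% above 0 over all probe sets. Of these 31 genes, 21 were among the 49 of the large subunit and 10 among the 27 of the small subunit. Without rosuvastatin mouse 3 there were 14 negative calls, against 12.2% of all probe sets, and without atorvastatin mouse 2 there were 15, against 9.16%. Without both mice there were 4 (median slope -0.13), against 4.75% of all probe sets called negative (median 0.01). With quantile normalization 13 were called negative, against 23.4% of all probe sets, and the median slope was -0.14, against -0.10 over all probe sets. The array median is computed from the same arrays.

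Bright probe sets as a whole had negative slopes more often. The tested probe sets were cut into 4 equal classes of brightness. In the brightest, which held 62 of the genes, 25 of these were called negative, and 25.1% of all probe sets of that class were. In the next class it was 6 of 13 genes and 26.5% of all probe sets. The median slopes of the genes were -0.25 and -0.35 in these classes, against -0.12 and -0.16 for all probe sets there.

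The steepest slopes were those of Mrpl57 at -0.70 (SE 0.13, adjusted p = 0.000108 in limma), Mrps18a at -0.62 (SE 0.10), Mrpl20 at -0.61 (SE 0.20), Mrpl36 at -0.54 (SE 0.08) and Mrps27 at -0.52 (SE 0.12). The other tested probe set of Mrpl57 had a slope of 0.18. All probe sets of a gene had slopes of the same sign for 15 of the 31 genes with more than 1. The 55 other probe sets had a median slope of -0.22. Mrpl20 lost its call without rosuvastatin mouse 3 (adjusted p = 0.0589 in limma) or without atorvastatin mouse 2 (0.290), and Mrpl57 and Mrps27 lost theirs without both (0.205 and 0.218). For Mrpl57 the log2 signal was 11.03 in rosuvastatin mouse 3 and 9.40 in atorvastatin mouse 2, the highest and the lowest of the 20. Mrpl36, the counterpart of a small zinc-binding bacterial protein, was highest in rosuvastatin mouse 3 at 11.63 and lowest in atorvastatin mouse 2 at 10.71. Mrps27, a pentatricopeptide repeat protein that binds RNA, was at 10.87 and 9.73 in these mice. The highest slopes, none of them called, were those of Mrps5 at 0.19, Mrpl42 at 0.16, Mrpl51 at 0.15, Mrpl44 at 0.11 and Mrpl41 at 0.09. The probe set of Mrps5 was faint, with a mean signal of 215, and the gene's other probe sets had slopes of -0.48 and -0.36. Other probe sets had slopes of 0.24 and -0.22 for Mrpl51, -0.10, -0.20 and -0.22 for Mrpl44, and -0.14 for Mrpl41.

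**Figure D5:**
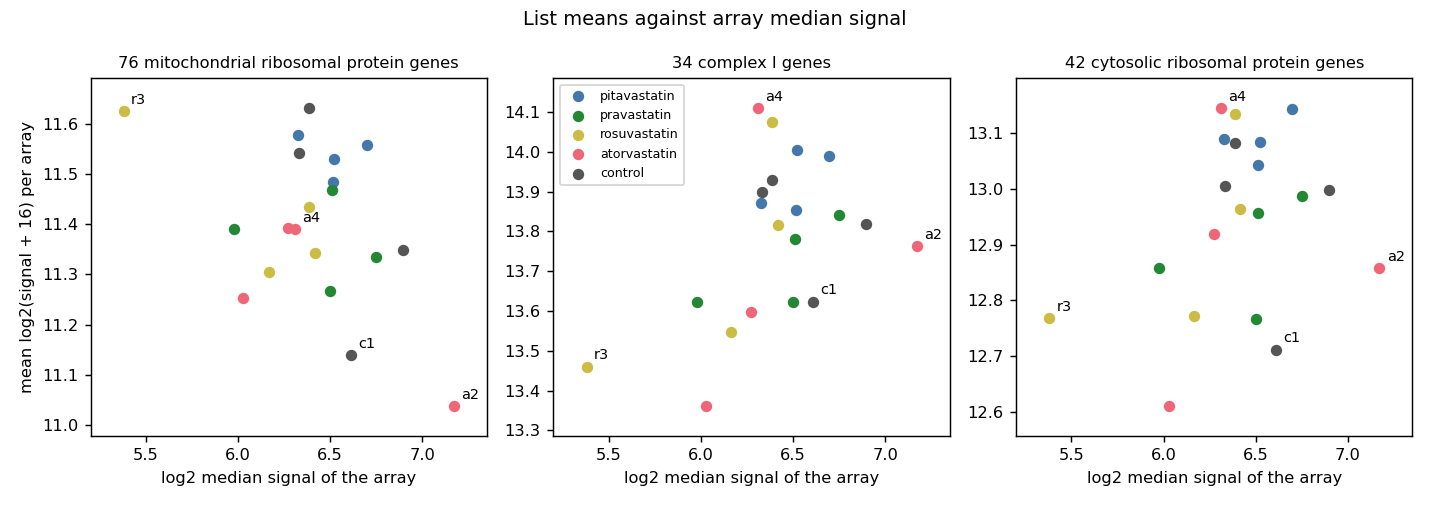
The mean log2(signal + 16) per array of the 76 genes, of 34 complex I genes and of 42 cytosolic ribosomal protein genes is plotted against the log2 median signal of the array, coloured by group. Rosuvastatin mouse 3 (r3) is at the upper left for the mitochondrial ribosomal genes, at 11.63, and at the lower left for complex I; atorvastatin mouse 2 (a2) is at the lower right for the mitochondrial ribosomal genes, at 11.04.

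Genes that act with this ribosome were set beside it. Of 5 measured ribosome or membrane partners with other names, such as Dap3 and the insertase Oxa1l, all 5 were positive in pitavastatin (median 0.13) and 0 in atorvastatin (median -0.17). Of 12 translation factors, 9 were positive in pitavastatin (median 0.08) and 0 in atorvastatin (median -0.16). In atorvastatin the initiation factor Mtif2 was at -0.40 (SE 0.10, unadjusted p = 0.000898, adjusted p = 0.769 in limma) and the elongation factor Tufm at -0.33 (SE 0.16). Of 20 aminoacyl-tRNA synthetases and their partners, 12 were positive in pitavastatin (median 0.06) and 3 in atorvastatin (median -0.10). The 20 assembly factors had medians of 0.02 in pitavastatin and 0.002 in atorvastatin, and the 13 genes of mitochondrial DNA transcription and upkeep 0.02 and -0.03. Of the 9 regulators, 2 were positive in pitavastatin (median -0.02) and 6 in atorvastatin (median 0.06), where Gabpa was at 0.27 and Pprc1 at 0.44. No gene of these lists was called in a statin against control.

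Cytosolic ribosomal protein and complex I genes gave like counts in pitavastatin. Of 42 cytosolic ribosomal protein genes, 41 were positive in pitavastatin (median 0.14), 5 in pravastatin (median -0.06), 8 in rosuvastatin (median -0.06) and 5 in atorvastatin (median -0.09), with no calls. Of 34 complex I genes, 32 were positive in pitavastatin (median 0.12), 2 in pravastatin (median -0.10), 5 in rosuvastatin (median -0.10) and 1 in atorvastatin (median -0.11), also with no calls. On the array median, 14 complex I genes had a positive called slope and 0 a negative one (median 0.19), and the cytosolic list had 7 positive and 4 negative (median 0.08). Over all probe sets 24% were called positive and 15.5% negative, and in the brightest class, which held 32 of the complex I genes, 7.8% and 25.1%. The difference of these lists from the mitochondrial ribosomal genes was not tested.

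Cell type markers gave the following levels beside these values. The mean log2 signal of the 12 cardiomyocyte markers was 14.85 to 15.07 in pitavastatin, 14.56 to 14.95 in pravastatin, 14.24 to 15.19 in rosuvastatin, 14.23 to 15.24 in atorvastatin and 14.72 to 15.004 in control. For the 8 fibroblast markers it was 10.96 to 11.10, 10.86 to 11.08, 11.04 to 11.35, 10.71 to 11.14 and 10.94 to 11.16 in the same order of groups. The 8 endothelial markers averaged 10.31 in pitavastatin (10.23 to 10.38) and 10.17 in control (10.01 to 10.37), with control mouse 1 the lowest of the 20. The 8 macrophage markers were lowest in atorvastatin mouse 2 at 9.94, followed by control mouse 1 at 10.13, and the fibroblast markers were lowest in atorvastatin mouse 2 and highest in rosuvastatin mouse 3. The 6 smooth muscle and pericyte markers averaged 10.79 in pitavastatin, 10.60 in pravastatin, 10.89 in rosuvastatin, 10.66 in atorvastatin and 10.55 in control. Of 4 atrial markers, 2 passed the filter, and their mean was 12.65 in pitavastatin mouse 2 and 12.35 in rosuvastatin mouse 3, while the other 18 mice lay between 10.44 and 11.51. Of 7 skeletal muscle markers, 3 passed, with the highest mean, 10.65, in rosuvastatin mouse 3. For red blood cells, lymphocytes and epicardium 1 marker each passed. No marker was at 0. In RNA of whole ventricle, fewer cells of a type and less RNA per cell cannot be told apart, and the part of cell composition in the results was not tested.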

How the data were processed

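Left ventricles of 20 mice, 1 array each, were analysed in 5 groups of 4 named by the labels. The deposited values are linear probe set signal intensities that the authors made with MAS5 (version not given), as named in the submitters' processing notes. Every array had the same trimmed mean of 500.0, so arrays had been scaled. Sequencing depth does not apply, and the number of arrays limits the precision.

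Of 45101 probe sets, 64 controls were left out, 16 was added before log2, and the brighter 50% by mean log2 value (signal 81.8) were tested, 22518 in all. Differences were fitted with limma 3.58.1 in R 4.3.3 (1 mean per group, 20 arrays, empirical Bayes with trend, 15 residual and 4.23 prior degrees of freedom). P-values were Benjamini-Hochberg adjusted over all tested probe sets, with calls at 0.05. The slope on array median signal was fitted beside the group means. Single values per array were compared by two-sided exact permutation. The fits were also run on simulated data with noise independent between probe sets. That run does not show how they behave for genes that move together, as these do. The annotation gives 34945 probe sets 1 symbol, 932 several and 9160 none; all 76 members matched RefSeq, which renamed 0.

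The members and gene lists were chosen with earlier results of these data known. Genes were named by a rule: called members, the 4 highest and 4 lowest fold changes per statin, the 5 smallest p of the F test, the 5 steepest slopes each way, the role groups, probe sets differing in sign, and up to 4 genes of other lists by p. Mrps24 (groups not overlapping), Mrps2, Mrps25 and Mrpl55 in atorvastatin, and the members least correlated with the others were named after their values were seen. Mouse numbers were checked for pairing by the correlation of deviations from the group means. Over 40 same-numbered pairs it ran from -0.54 to 0.69 (median 0.08), and over 120 other pairs from -0.76 to 0.74 (median -0.04). The labels do not say what the numbers stand for, and they were not used as pairs.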

Additional observations from a re-analysis of the deposited data

Results flagged for a closer look

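The 160 groups of 4 mice examined were 30 named members, the mean of the members and the array median signal, each in 5 groups. Of these, 5 held a mouse whose gap to the nearest of the others, over the whole range of the group, exceeded 0.829. Chance gives about 1 in 20 groups, which is more than were found here. Mrpl21 was at 10.28 in pitavastatin mouse 1, with the others at 10.75 to 10.77. Mrpl49 was at 9.81 in pravastatin mouse 1, with the others at 10.11 to 10.16. Mrpl43 was at 11.39 in rosuvastatin mouse 3, with the others at 11.00 to 11.04. In atorvastatin mouse 2, the array of highest median signal, Mrpl55 was at 10.56 with the others at 11.09 to 11.18, and Mrpl57 was at 9.40 with the others at 10.53 to 10.69.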

How the results depend on the processing

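The 20 summary results gave 626 recomputed values. Of these, 586 kept their side of the threshold or moved by less than the spread, and 40 did not. Of 1469 values of single members, 1462 did and 7 did not. A change of sign alone was not counted. For summary results the spread was 0.145, while the members' median furthest from 0 in any statin was -0.141, in atorvastatin. Leaving out 1 mouse changed the sign of the members' median in 3 of 20 runs for rosuvastatin and 1 for pravastatin. For the mean of the 4 statins it changed in 2. In atorvastatin the sign changed in 2 runs each for Mrpl21 and Mrps24. No member was called in a statin against control or in the F test under any alternative run. With the array median signal as a covariate, 6 probe sets were called in pravastatin against control and 5 in the F test. With quantile normalization, 13 members had a called slope (median -0.14, all probe sets -0.10), and the slope of Mrpl51 turned to -0.20. With each array centred on its median, the members' median was 0.39 in rosuvastatin (all probe sets 0.36) and 0.13 in the mean of the 4 statins (all 0.14), and the F test called 0 probe sets. The F test also called 0 without the trend and with 1 probe set per gene, where 3663 slopes were called; without the filter 18868 were. With rosuvastatin mouse 3 and atorvastatin mouse 2 left out, the F test called 2 probe sets, 4921 slopes were called, 4 of them of members (median -0.13). The mouse number as a replicate block gave 6 probe sets in the F test and changed no other call of a group comparison. Whether the numbers pair the mice is not given by the labels. Leaving out 1 mouse at a time gave 0 to 23 probe sets called in pravastatin, 0 to 17 in rosuvastatin, 0 to 18 in atorvastatin, 0 to 9 in the mean of the 4 statins and 0 to 49 in the F test, highest without control mouse 1 in each. Member slopes called ran from 14 without rosuvastatin mouse 3 to 37. The members' median ran from 0.04 to 0.20 in pitavastatin, -0.15 to 0.002 in pravastatin, -0.09 to 0.08 in rosuvastatin, -0.23 to -0.08 in atorvastatin and -0.12 to 0.05 in the mean of the 4 statins. The causes were not tested.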
